A study of Mus musculus with 11 samples.

Results

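Havcr1, Lcn2, Clu, Igfbp7, Cst3, Pigr and Wfdc2 encode proteins that are measured in urine or blood, or stained in tissue, as signs of kidney injury. These 7 genes were taken by symbol from the 28692 genes counted in single cells of mouse kidney, and each was followed in tubular, stromal, endothelial and immune cells named by marker genes. The study asked how kidneys in advanced injury differ from normal kidneys. The control group held 5 libraries of naive kidneys, labelled Ctrl, N1, N2, AN1 and AN2. The UIR group held 3 libraries of kidneys after unilateral ischemia-reperfusion, in which the left renal pedicle was clamped for 30 minutes at 37 °C, and the UUO group held 3 libraries of kidneys after unilateral ureteral obstruction, in which the left ureter was tied for good. All mice were adult male C57Bl/6, those of the injury groups were operated at 10 weeks of age, and injured kidneys were taken on day 28. The controls were unoperated mice matched in age, strain and sex, so effects of the operation and of the injury cannot be told apart. Each model had 3 mice and the controls 5, and p-values measure the spread between these libraries. The controls were run in 3 batches and no batch is given for the injured libraries, so batch and injury cannot be told apart either, and no value within a batch could be computed.

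Havcr1 encodes kidney injury molecule 1, a membrane receptor for phosphatidylserine on dying cells that injured proximal tubules are known to make. Lcn2 encodes neutrophil gelatinase-associated lipocalin, a small secreted protein that binds bacterial siderophores and is made by neutrophils and by stressed distal tubules and collecting ducts. Clu encodes clusterin, a secreted chaperone, and Pigr encodes the receptor that carries polymeric immunoglobulin A across epithelia. Wfdc2 encodes a secreted protein of the whey acidic protein family, Igfbp7 a secreted binding protein used in urine as a sign of tubular cell stress, and Cst3 encodes cystatin C, a secreted inhibitor of cysteine proteases whose blood level is used to estimate filtration. The nephron runs from the podocytes of the glomerulus through the proximal tubule (PT), the thin limb, the thick ascending loop of Henle (LOH) and the distal and connecting tubule (DT) to the collecting duct with its principal (CD-P) and intercalated (CD-I) cells. A further class was named here from Vcam1, Cp, Dcdc2a, Sema5a and Cdh6 and is given the study's term, failed repair tubular epithelial cells (frTECs). The study described its frTECs by a partly different set of genes, which includes Vcam1 and Cp, so the cells of this class need not be the same.

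After cell calling, quality filters and removal of doublets, 40484 cells were kept, of which 10240 were control, 16926 UIR and 13318 UUO cells. A library held between 91920461 and 110914244 unique molecular identifiers (UMIs, 1 for each captured RNA molecule) in the control group, between 82522753 and 117043590 in the UIR group and between 49503312 and 60918546 in the UUO group, empty droplets included. Median UMIs per kept cell ranged from 2587 to 5042.5 (control), 2569 to 3837.5 (UIR) and 3154 to 4018 (UUO). Of the called barcodes, between 56.99 and 78.55% per control library exceeded the limit of 30% mitochondrial UMIs and were dropped, against 23.45 to 36.88% after ischemia-reperfusion and 3.146 to 7.67% after obstruction. In the final set 209 barcodes occurred in more than 1 library and made 211 shared pairs, where 107.1 would be met by chance. PT made up 52.9% of the control cells, 9.47% of the UIR cells and 0.991% of the UUO cells. The PT pools of UUO therefore rested on 28, 43 and 61 cells, and no control library held the 20 frTECs set as the minimum for a pool. Each class kept the markers it was named by in every group, but their summed level was lower after injury in the distal classes, with a median of 21010, 13110 and 7899 CPM (the count of a gene relative to all UMIs of the class in that library) for the LOH markers in control, UIR and UUO, of 2904, 1352 and 549.4 for the DT markers and of 23960, 9221 and 3874 for the CD-P markers. The part of these shifts in the results was not tested.

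Levels are given as CPM in the order Ctrl, N1, N2, AN1 and AN2 for controls and in the order unnumbered, 1 and 2 for the injured libraries. Tests are edgeR quasi-likelihood tests on the UMIs of a class summed per library, with Benjamini-Hochberg adjustment over all genes of the class and a threshold of 0.05. Of the 84 gene-by-class comparisons in 11 classes and all cells together, 72 passed the filter on low counts. Against control, 42 of these were higher and 2 lower in UIR, and 37 were higher and 4 lower in UUO. Over all genes in the same pools, 19.1% of tests passed in UIR and 24.9% in UUO. Lcn2 passed in 10 of 11 tests in both injuries, Clu in 11 of 12 in UIR and 9 of 12 in UUO, Wfdc2 in 11 and 6 of 12, and Pigr in 6 of 10 in both, all of them higher. Havcr1 passed the filter in only 3 of 12 pools, Igfbp7 was called in 1 of 12 tests in UIR and 2 of 12 in UUO, and Cst3 was higher in 2 and lower in 2 of 12 in UIR and higher in 2 and lower in 4 of 12 in UUO. Members of a class share cells and libraries, so these counts are not independent.

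The cells that held each gene's UMIs differed between the groups. Lcn2 UMIs of kept cells lay with 86.3% ± 6.2 (SD over 5 libraries) in CD-P in the controls, whereas LOH held 69.0% ± 2.8 (SD over 3 libraries) in UIR and 46.7% ± 6.0 in UUO. Havcr1 UMIs lay with 80.0% ± 29.8 in PT in the controls and with 68.5% ± 24.2 in frTECs in UIR and 51.4% ± 37.6 in UUO, with a wide spread between libraries. The control libraries held only 3, 2, 30, 1 and 12 Havcr1 UMIs, so the control share rests on few molecules. For Pigr the leading class was PT in the controls at 75.9% ± 10.2, LOH in UIR at 36.6% ± 3.9 and CD-P in UUO at 32.7% ± 11.9. DT held 71.3% ± 6.6 of the Clu UMIs in the controls, and after injury DT, LOH and CD-P shared them at 35.3%, 32.9% and 17.9% in UIR and at 29.8%, 26.5% and 32.1% in UUO. DT was also the leading source of Wfdc2 in the controls at 44.9%, and LOH held 69.3% in UIR and 60.1% in UUO. These shares follow both the level per cell and the number of cells caught from each class.

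**Figure D1:**
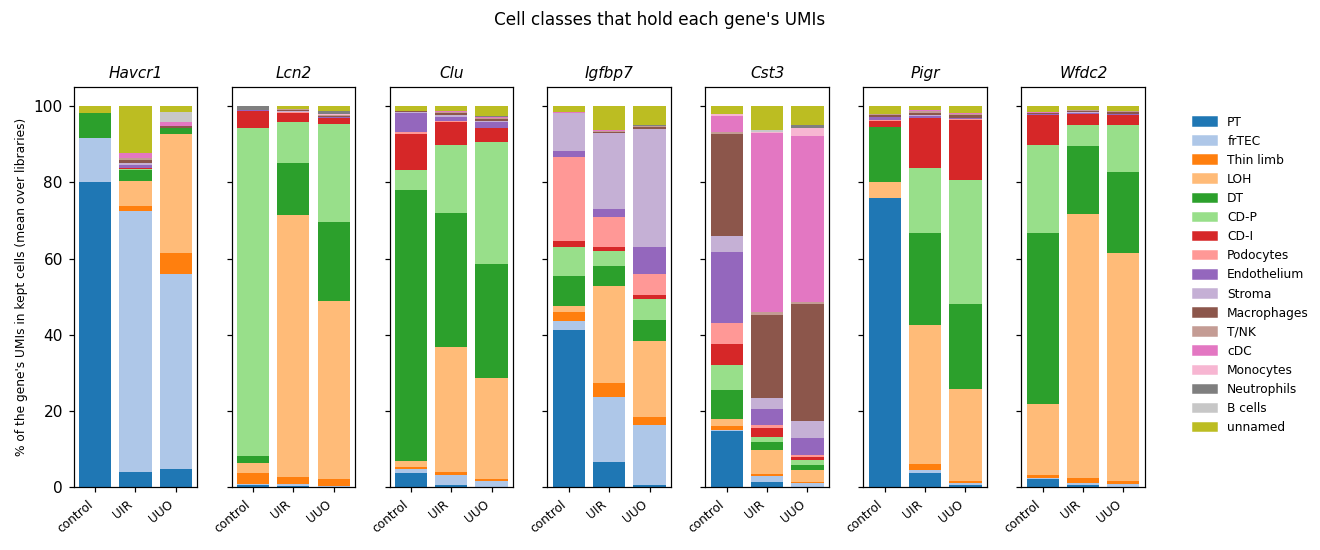
Stacked bars give the percent of each gene's UMIs in kept cells that came from each class, as the mean over the libraries of control, UIR and UUO, with unnamed cells as a class of their own. For Lcn2 the CD-P block of 86.3% in the controls gives way to LOH blocks of 69.0% in UIR and 46.7% in UUO.

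Havcr1 was near zero in the control pools of tubular cells, and after injury its level was highest in frTECs in 5 of 6 libraries, with low levels in PT and LOH. The gene lies on the plus strand of chromosome 11 (GRCm38, 11:46735080-46779578). RefSeq lists more than 1 start for it, and the 250 bases before one of the internal starts (GRCm38.p6, chr11:46750918-46751167, plus strand) hold none of the 5 short motifs searched on both strands, which were the TATA box TATAAA, the E-box CACGTG, the STAT element TTCNNNGAA, the AP-1 element TGANTCA and the CCAAT box. These motifs occur in 12.4%, 6.02%, 7.02%, 6.75% and 33.8% of 32851 RefSeq promoters of that length. The window is printed whole in lower case, as no motif was found, because Havcr1 is the marker of proximal injury among the 7 genes.
Havcr1: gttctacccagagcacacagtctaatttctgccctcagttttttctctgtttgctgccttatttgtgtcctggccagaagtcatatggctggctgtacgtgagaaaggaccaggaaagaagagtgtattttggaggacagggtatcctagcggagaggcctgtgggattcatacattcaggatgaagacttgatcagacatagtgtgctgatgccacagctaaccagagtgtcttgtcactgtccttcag

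In frTECs Havcr1 stood at 107.3, 190.3 and 73.29 CPM in UIR and at 4.073, 108.1 and 101.6 CPM in UUO. All injured libraries but the unnumbered UUO library were above 70 CPM, and the UIR and UUO ranges overlapped, with a log2 fold change of −0.77 (SE 0.66) for UUO over UIR and an adjusted p of 0.994. Of the 24 Havcr1 UMIs of the unnumbered UUO library, 18 lay in LOH and 2 in frTECs. The 18 control frTECs, too few for a pool, held 7 Havcr1 UMIs in all, all of them in the 2 frTECs of AN2 (225.9 CPM), a level above every injured frTEC pool. A Havcr1 UMI was found in 5 of 45, 70 of 340 and 28 of 148 frTECs in UIR, and in 1 of 36, 27 of 102 and 14 of 62 in UUO. Within the class, the cluster led by Ubd, Havcr1, C3, Ccl2 and Vcam1 averaged 200.3 CPM of Havcr1, and the other cluster, led by Wnt16, Ankrd1 and Tnc, averaged 0.4 CPM. The first of these clusters drew 54.4% of its cells from 1 library.

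In PT, where the protein is classically found, Havcr1 was at 0.18, 0.293, 4.005, 0.112 and 0.428 CPM in the controls. It was at 1.95, 5.76 and 3.224 CPM in UIR and at 0, 4.147 and 81.83 CPM in UUO. The control library N2 and the library UUO2 stood apart, and the ranges of both injuries overlapped the controls. All 30 UMIs of N2 came from 1 cell of 1027, and the 28 UMIs of UUO2 from 2 cells of 61. The UIR comparison did not pass (log2 fold change 2.10, SE 0.78, adjusted p = 0.109) but passed without N2 (3.89, adjusted p = 5.1e-04). The UUO comparison passed (5.13, SE 1.001, adjusted p = 0.00379) and did not without UUO2 (1.87, adjusted p = 0.772) or with 15% of barcodes removed as doublets (4.07, adjusted p = 0.171). Of all genes tested in PT, 8.68% passed in UIR and 3.86% in UUO. A Havcr1 UMI was found in 10 of 5413 control PT cells, against 6 of 449, 27 of 828 and 10 of 326 in UIR and 0 of 28, 2 of 43 and 2 of 61 in UUO. The PT levels were 0.1335, 1.075 and 0.4459 times those of the empty droplets of the same library in UIR and 0, 0.3995 and 5.209 times in UUO. The empty droplets held 0 to 0.494 CPM of Havcr1 in the controls, 5.359 to 14.61 CPM in UIR and 5.287 to 15.71 CPM in UUO.

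In LOH all control libraries were at 0, UIR libraries were at 1.519, 9.76 and 1.011 CPM and UUO libraries at 3.34, 6.763 and 4.561 CPM. Every injured library lay above every control library, and measured against 3 counts over the whole control group, or 1.562 CPM, the level of the pooled UMIs was at least 3.20-fold higher in UUO. In UIR 75 of the 96 UMIs came from UIR1, and the other libraries lay below that floor, so no bound is given. The test did not pass in either (adjusted p = 0.157 and 0.109), and UUO passed with DESeq2 (adjusted p = 0.0296), as both did without UIR2 (0.043 and 0.0472). These levels were 0.104 to 1.82 times those of the empty droplets of the same library in UIR and 0.290 to 0.651 times in UUO. Havcr1 did not pass the filter on low counts in DT, where 1 control UMI in all stood against 3.112, 3.836 and 1.398 CPM in UIR and 0, 0.866 and 6.466 CPM in UUO, nor in the thin limb, with both control pools at 0, UIR at 3.681, 7.078 and 2.675 CPM and UUO at 4.315 and 20.27 CPM. In CD-P, CD-I, podocytes, endothelium and stroma no Havcr1 UMI was seen in any control or UUO pool, and UIR pools stayed at or under 1.682 CPM. B cells of UUO held 2.643, 2.564 and 18.35 CPM from 1, 1 and 7 UMIs, and T/NK cells and macrophages at most 0.614 and 1.32 CPM in any injured library. Summed over all kept cells, Havcr1 was at 0.162, 0.185, 2.539, 0.0755 and 0.826 CPM in the controls, at 4.975, 22.93 and 6.655 CPM in UIR and at 0.906, 8.794 and 8.246 CPM in UUO. UIR lay above the controls throughout (log2 fold change 3.67, SE 0.88, adjusted p = 0.00311), while the unnumbered UUO library fell inside the control range (2.60, SE 0.92, adjusted p = 0.0224). Without Ctrl, AN1, UUO1 or UUO2 the UUO comparison did not pass (adjusted p = 0.0582, 0.0508, 0.0815 and 0.068), nor did it with 10% of each pool's UMIs subtracted as free RNA of the empty droplets' profile (0.0556). With a mitochondrial limit of 15% neither injury passed (adjusted p = 0.0551 in UIR and 0.308 in UUO). Of all genes tested over all cells, 61.1% passed in UIR and 70.9% in UUO.

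Lcn2 rose along the whole distal nephron, most steeply in DT and LOH. The gene lies on the minus strand of chromosome 2 (2:32384633-32388252). In LOH the controls were at 6.917, 4.619, 2.568, 8.237 and 10.77 CPM. UIR libraries were at 1381, 1873 and 1324 CPM and UUO libraries at 1930, 2382 and 2313 CPM. The groups did not overlap, the lowest injured library being far above the highest control, and the log2 fold change was 7.58 (SE 0.24, adjusted p = 1.16e-17) in UIR and 8.10 (SE 0.24, adjusted p = 1.71e-18) in UUO. Of all genes in LOH, 32.7% passed in UIR and 37.6% in UUO. The share of LOH cells with an Lcn2 UMI had a median over libraries of 2.33% in the controls, 80.2% in UIR and 82.9% in UUO. With each cell of at least 1000 UMIs thinned to that depth the medians were 0.271%, 51.3% and 61.5%. In T/NK cells, lymphocytes that should lack Lcn2, the unthinned medians were 0%, 4.91% and 6.0%, at a median of 4028, 3871 and 5060 UMIs per cell against 4966, 11480 and 9868 in LOH. Most control LOH cells (278 of 283) fell in 1 cluster, and most injured LOH cells in 3 others, in which Lcn2 averaged 1429, 2514 and 887 CPM.

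In DT the controls were at 1.658, 6.847, 1.141, 1.333 and 1.001 CPM. UIR stood at 770.9, 1016 and 1344 CPM and UUO at 2356, 2852 and 2851 CPM. All injured libraries lay above the controls and all UUO libraries above all UIR libraries, with a log2 fold change against control of 8.55 (SE 0.27, adjusted p = 4.83e-16) in UIR and 9.84 (SE 0.26, adjusted p = 1.43e-17) in UUO. Over the alternatives the UIR value ran from 5.49 with a mitochondrial limit of 50% to 11.04 with the marker gate, in which each cell is named on its own by its markers, and all passed. UUO exceeded UIR by 1.29 (SE 0.18, adjusted p = 5.42e-05). Of all genes in DT, 32.0% passed in UIR and 42.9% in UUO. The DT clusters differed in Lcn2 and in their cells: 1 cluster of 2 control, 347 UIR and 213 UUO cells averaged 1945 CPM and held 20528 Lcn2 UMIs, while the other 3 clusters, which held all but 2 of the control cells, averaged 117.6, 10.05 and 5.081 CPM with 132, 32 and 12 UMIs. In the controls Lcn2 was highest in CD-P, at 95.09, 330.5, 153.7, 187.2 and 211.2 CPM. CD-P held 1125, 2055 and 1333 CPM in UIR and 3517, 4248 and 3021 CPM in UUO. The groups were again apart, with a log2 fold change of 2.90 (SE 0.27, adjusted p = 3.86e-07) in UIR and 4.13 (SE 0.28, adjusted p = 1.03e-09) in UUO, where 15.7% and 31.7% of all genes in CD-P passed. UUO exceeded UIR by 1.24 (SE 0.29, adjusted p = 0.0183), a call lost without the unnumbered UIR library, UIR2 or UUO1 (adjusted p = 0.0731, 0.102 and 0.0664), with DESeq2 (0.0756) and with a mitochondrial limit of 15% (0.0753).

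Lcn2 also rose in CD-I, from 0, 34.29, 6.869, 21.64 and 4.403 CPM in the controls to 15.8, 525 and 285.3 CPM in UIR and 147, 656.5 and 141.5 CPM in UUO. The unnumbered UIR library lay within the control range, and the log2 fold change was 4.37 (SE 0.89, adjusted p = 0.00187) in UIR and 4.49 (SE 0.89, adjusted p = 7.1e-04) in UUO, where 13.8% and 24.0% of all genes passed. These injured CD-I pools were at 0.0964, 4.916 and 2.416 times the empty droplets of the same library in UIR. In UUO they were at 0.4345, 1.674 and 0.4715 times, and the controls at 0 to 29.21 times. In the thin limb, with only Ctrl and AN2 as control pools, Lcn2 was at 16.43 and 0 CPM, at 195.1, 903.2 and 256.8 CPM in UIR and at 782.5 and 918.1 CPM in the unnumbered UUO library and UUO1. The injured pools lay above both controls (5.71, adjusted p = 2.5e-04 in UIR and 6.61, adjusted p = 5.85e-05 in UUO), with 6.12% and 5.96% of all genes called. Because neutrophils make Lcn2, their markers S100a8, S100a9, Csf3r, Retnlg and Cxcr2 were summed in the same pools. The sum was 0 CPM in every control pool of LOH and CD-P, 0.708 to 1.43 CPM in UIR and 3.64 to 31.9 CPM in UUO for LOH, and at most 28.5 CPM in injured CD-P. Neutrophils themselves held 421.1 CPM of Lcn2 in the only UIR pool and 316.1, 927.8 and 451.8 CPM in UUO, below every injured library of LOH and CD-P.

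Proximal cells held little Lcn2. In PT the controls were at 0.18, 0.147, 0, 0 and 0 CPM, which is 3 UMIs in all, UIR libraries at 7.799, 8.722 and 9.379 CPM and UUO libraries at 58.09, 43.55 and 8.767 CPM. The injured libraries lay above the controls in both (adjusted p = 3.67e-09 and 7.73e-08, the UUO call being lost with a mitochondrial limit of 15% at 0.393), and the ratio of pooled counts per UMI was 126.4 (95% counting interval 42.1 to 622.5) for UIR and 441.1 (135.2 to 2277) for UUO. These levels were 0.0476 to 0.0817 times those of the empty droplets of the same library in UIR and 0.0292 to 0.172 times in UUO. frTECs held 13.42, 40.25 and 49.08 CPM in UIR and 14.25, 51.18 and 35.32 CPM in UUO, 0.0421 to 0.416 times the empty droplets. So Havcr1 and Lcn2, both at high levels after injury, were high in different classes, and over the 68 tubular class-by-library pools their log2(CPM + 1) levels had a Pearson r of 0.107, given as a description, since pools share libraries.

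**Figure D2:**
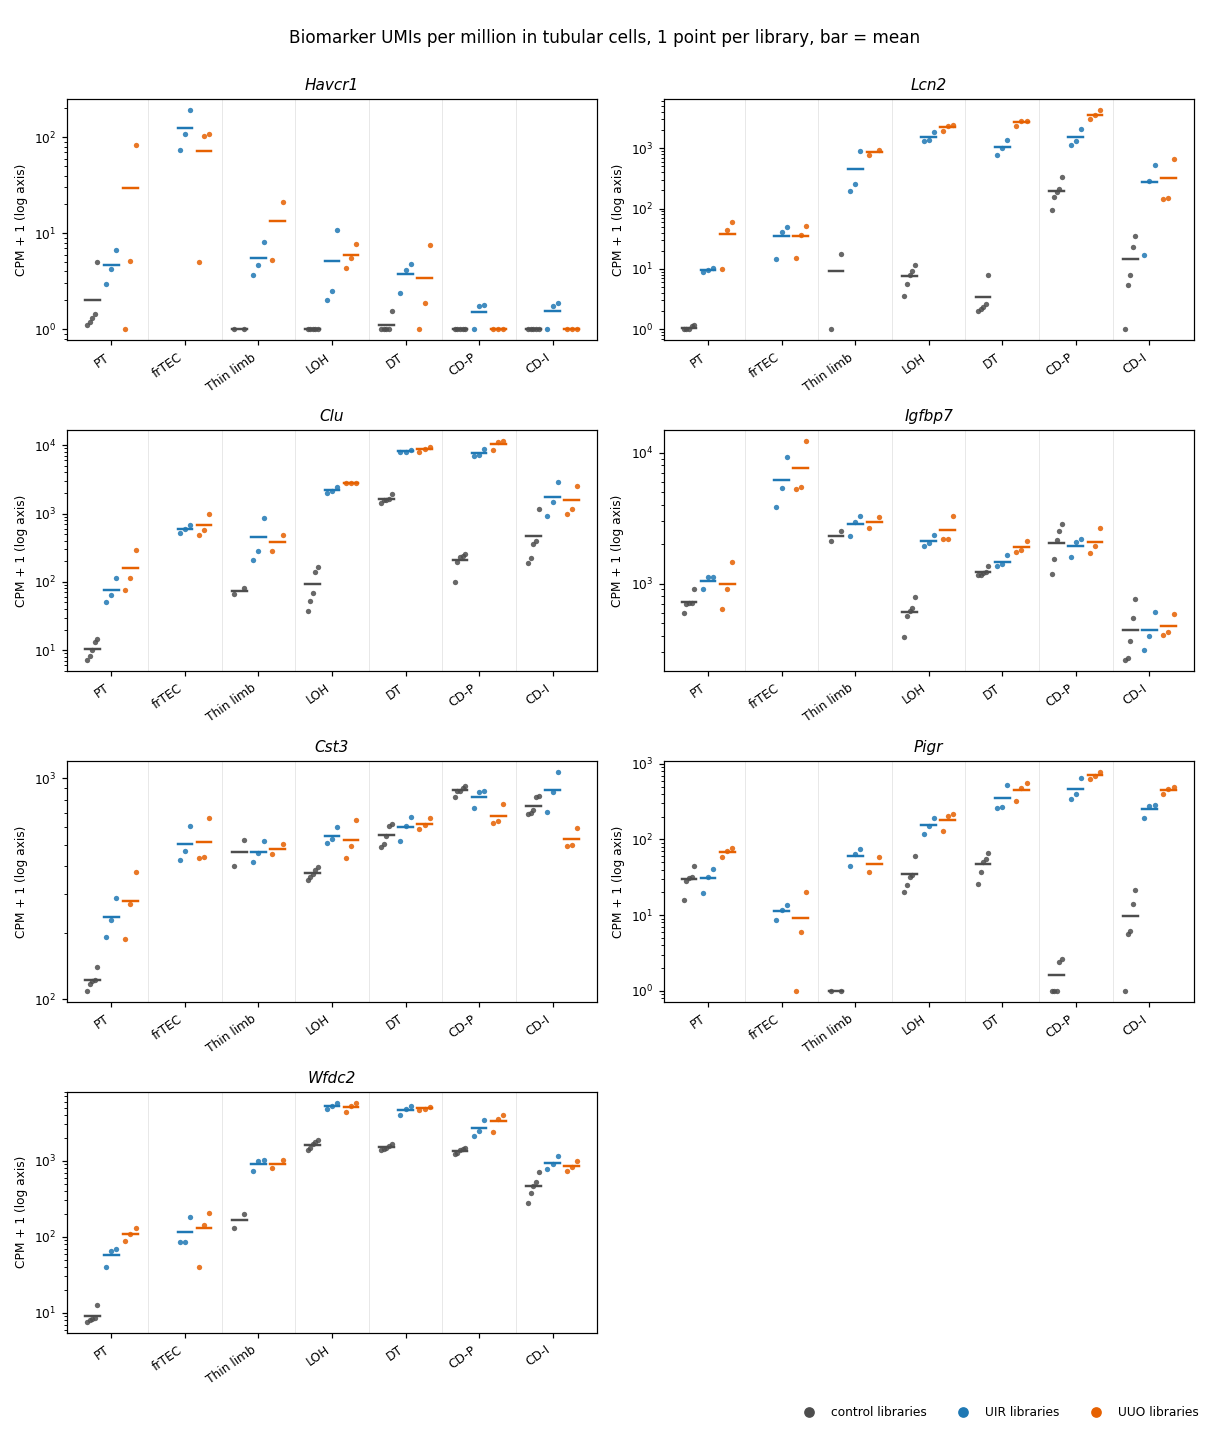
Each panel shows 1 gene, with CPM + 1 on a log axis against the tubular classes, 1 point per library with at least 20 cells of the class (grey control, blue UIR, orange UUO) and a bar at the group mean. Lcn2 points of LOH lie at 2.57 to 10.8 CPM in the controls and at 1324 to 2382 CPM after injury, while Havcr1 points over 70 CPM are found in frTECs and in 1 PT pool.

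Clu was high in control DT and rose in all 6 tubular classes that had control pools. Its locus is on the plus strand of chromosome 14 (14:65968483-65981547). In CD-P the controls were at 241.8, 256, 197.2, 228.9 and 98.23 CPM, UIR at 8785, 6886 and 7232 CPM and UUO at 11500, 8426 and 11220 CPM. No injured library came near the controls, and the log2 fold change was 5.16 (SE 0.23, adjusted p = 1.04e-11) in UIR and 5.60 (SE 0.23, adjusted p = 1.5e-12) in UUO. In LOH the controls were at 136.6, 36.95, 51.35, 164.7 and 67.3 CPM, UIR at 2415, 2136 and 2005 CPM and UUO at 2846, 2780 and 2755 CPM. The groups were apart here too (4.27, SE 0.24, adjusted p = 7.42e-13 in UIR and 4.62, SE 0.24, adjusted p = 1.12e-13 in UUO).

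DT started from a high level of Clu, with 1558, 1601, 1423, 1660 and 1916 CPM in the controls, 8426, 7974 and 8021 CPM in UIR and 7872, 9441 and 8831 CPM in UUO. All injured libraries lay above all controls, by 1.98 (SE 0.13, adjusted p = 2.14e-10) and 1.995 (SE 0.13, adjusted p = 4.8e-11) on the log2 scale. With a mitochondrial limit of 50% the UIR value was 0.80. In CD-I the controls were at 220.9, 187.4, 393.2, 1169 and 355.2 CPM, UIR at 929.5, 2864 and 1462 CPM and UUO at 1180, 2543 and 997.5 CPM. AN1 was high among the controls and the ranges overlapped. The tests passed (1.70, adjusted p = 0.0112 in UIR and 1.46, adjusted p = 0.0184 in UUO), but not without UIR1 (1.14, adjusted p = 0.092) or UUO1 (0.96, adjusted p = 0.172), and with DESeq2 neither did (adjusted p = 0.097 and 0.128). In the thin limb Clu was at 65.73 and 81.57 CPM in the controls, 281, 859.3 and 206.9 CPM in UIR and 280.5 and 483.6 CPM in UUO. The injured pools lay above the controls (2.57, adjusted p = 0.00513 and 2.30, adjusted p = 0.0182), and the UIR call was lost without Ctrl (adjusted p = 0.0831) and the UUO call without Ctrl, AN2 or UUO1 (0.143, 0.0822 and 0.108), with DESeq2 (0.131) and with free RNA subtracted (0.173). In PT Clu was at 6.156 to 13.35 CPM in the controls, 62.39, 114.2 and 48.95 CPM in UIR and 290.4, 114 and 75.98 CPM in UUO (3.03, adjusted p = 6.59e-09 and 3.34, adjusted p = 1.26e-05), at 0.0457 to 0.211 times the empty droplets of the same library. The UUO call was lost with a mitochondrial limit of 15% (adjusted p = 0.443) and with 10% of each pool subtracted as free RNA (0.662). frTECs held 523.5 to 688.1 CPM in UIR and 483.7 to 973.4 CPM in UUO, which could not be set against controls.

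Among CD-P cells the highest levels of Clu and Pigr were in 1 cluster, led by Sprr2f, Spink8 and Stc1, that held 121 UIR cells, 198 UUO cells and no control cell. Its mean levels were 12280 CPM of Clu, 3211 CPM of Lcn2 and 984.9 CPM of Pigr. The CD-P cells of the controls fell mainly in 2 other clusters, of 108 and 102 control cells, with 3049 and 108.7 CPM of Clu and 15.23 and 1.342 CPM of Pigr over all groups. A smaller CD-P cluster of 84 cells, 56.0% of them from 1 library, had more Lcn2, with 3924 CPM, and 34.6 CPM of Pigr. These cluster values are descriptions, with cells from several libraries pooled.

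Pigr was nearly absent from control collecting duct principal cells and was at 343.3 CPM or more there in every injured library. The gene lies on the plus strand of chromosome 1 (1:130826684-130852249). In CD-P the controls were at 0, 0, 0, 1.44 and 1.637 CPM, which is 2 UMIs in 215 cells, UIR libraries at 396.5, 343.3 and 655.8 CPM and UUO libraries at 695.7, 630.8 and 778.6 CPM. All injured libraries were above all controls (log2 fold change 9.07, SE 0.38, adjusted p = 6.86e-12 in UIR and 9.66, SE 0.37, adjusted p = 1.15e-12 in UUO). The fitted size was 3.44 in UIR and 4.17 in UUO with a mitochondrial limit of 50% and 11.9 and 12.5 with free RNA subtracted, and every alternative passed. Control CD-P pools, at 0 to 0.0702 times the empty droplets, all lay under the 10% removed as free RNA, so 11.9 and 12.5 are no measure of size. The ratio of pooled counts was 640.3 (95% counting interval 177.0 to 5291) for UIR and 941.2 (260.3 to 7775) for UUO. A Pigr UMI was found in 2 of 215 control CD-P cells, 136 of 301 in UIR and 188 of 269 in UUO, against library medians of 1.27%, 1.99% and 1.43% in macrophages, which should lack it. The CD-P cluster without control cells held 5020 Pigr UMIs, and the clusters with most of the control CD-P cells held 50 and 2. The difference between the groups in CD-P thus lay mainly in that cluster. The 250 bases before the annotated start (GRCm38.p6, chr1:130826434-130826683, plus strand, from RefSeq) are shown because Pigr had the largest fitted change of the 7 genes in CD-P in the main comparison. With a mitochondrial limit of 50% the change of Clu was larger. The only match to the motifs above, the E-box CACGTG at bases −71 to −66, is in capitals. Of 32851 promoters, 6.02% hold this motif. The match is given as a description of the sequence, and binding at it was not tested.
Pigr: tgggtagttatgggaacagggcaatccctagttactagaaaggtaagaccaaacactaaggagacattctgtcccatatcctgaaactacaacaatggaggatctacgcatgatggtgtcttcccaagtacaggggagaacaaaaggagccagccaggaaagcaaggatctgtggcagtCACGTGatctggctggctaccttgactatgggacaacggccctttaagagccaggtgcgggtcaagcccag

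Pigr rose in the other distal classes as well. In CD-I the controls were at 20.39, 4.572, 5.152, 0 and 13.21 CPM, UIR at 193.2, 285.8 and 276.9 CPM and UUO at 394.4, 461.3 and 490.6 CPM. The groups were apart (4.39, SE 0.29, adjusted p = 2.94e-09 and 5.14, SE 0.28, adjusted p = 1.13e-10). In DT the controls were at 35.92, 24.65, 53.64, 49.33 and 66.07 CPM, UIR at 269.7, 262.3 and 528.4 CPM and UUO at 323.3, 483.8 and 558.2 CPM. These did not overlap either (2.60, SE 0.23, adjusted p = 1.78e-08 and 2.90, SE 0.23, adjusted p = 1.03e-09). LOH went from 31.12, 60.04, 33.38, 19.22 and 24.23 CPM to 118.6, 191.7 and 151.9 CPM in UIR and 128, 200.8 and 216.8 CPM in UUO. The rise was smaller but clear of the controls (2.06, SE 0.24, adjusted p = 1.95e-07 and 2.28, SE 0.24, adjusted p = 2.3e-08). In the thin limb no Pigr UMI was seen in either control pool, and UIR pools held 44.17, 73.62 and 63.31 CPM and the UUO pools 35.96 and 57.92 CPM. Against 3 counts over the controls the level of the pooled UMIs was at least 9.80-fold higher in UIR and at least 7.04-fold higher in UUO (adjusted p = 2.4e-04 and 0.00137). PT was the exception among the nephron segments, with 27.64, 30.78, 14.95, 29.74 and 43.85 CPM in the controls, 18.52, 39.33 and 30.77 CPM in UIR and 58.09, 68.43 and 75.98 CPM in UUO. UIR lay within the controls (0.07, SE 0.24, adjusted p = 0.927), and UUO was above them without passing (1.12, SE 0.40, adjusted p = 0.133), though it passed without AN2 (1.34, adjusted p = 0.0383). frTECs held at most 19.41 CPM. Pigr did not pass in endothelium (0 to 9.103 CPM over all libraries), macrophages (3.136 to 7.48 CPM) or T/NK cells (0 to 19.36 CPM), and was below the filter in stroma and podocytes, at 14.69 CPM or less.

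Wfdc2 was made throughout the control distal nephron and rose there, with fitted folds of 2.75 in LOH, 2.47 in DT and 1.89 in CD-P in UIR. The gene lies on the plus strand of chromosome 2 (2:164562413-164568510). In LOH the controls were at 1750, 1386, 1864, 1477 and 1647 CPM, UIR at 5785, 4777 and 5201 CPM and UUO at 5764, 5314 and 4353 CPM. All injured libraries lay above the controls (log2 fold change 1.46, SE 0.15, adjusted p = 1.51e-08 in UIR and 1.42, SE 0.15, adjusted p = 1.53e-08 in UUO). In DT the controls were at 1380 to 1684 CPM, UIR at 5255, 4048 and 4817 CPM and UUO at 5125, 4658 and 4851 CPM. The groups were apart by 1.31 (SE 0.13, adjusted p = 6.08e-08) and 1.28 (SE 0.13, adjusted p = 3.26e-08). Over the alternatives the UIR value ran from 0.46 with a mitochondrial limit of 50% to 2.58 with a limit of 15%. In CD-P the controls were at 1208 to 1449 CPM, UIR at 3484, 2084 and 2449 CPM and UUO at 3590, 2419 and 4027 CPM. The differences were 0.92 (SE 0.18, adjusted p = 0.00109) and 1.24 (SE 0.18, adjusted p = 1.74e-05). With a mitochondrial limit of 50% neither passed (0.33, adjusted p = 0.299 and −0.24, adjusted p = 0.399), nor did UIR with the marker gate (0.60, adjusted p = 0.054). In CD-I the controls were at 273.6, 701.7, 461.9, 378.7 and 524 CPM, UIR at 911.3, 1138 and 770.1 CPM and UUO at 825.9, 989.9 and 737.8 CPM. UIR passed (0.77, adjusted p = 0.0155), but not without UIR1 (0.61, adjusted p = 0.0864), while UUO did not (0.54, adjusted p = 0.0676) but passed without N1 (0.71, adjusted p = 0.0139). In the thin limb, 197.2 and 130.5 CPM in the controls stood against 733.8 to 1025 CPM after UIR and 1027 and 808 CPM after UUO, and both comparisons passed (2.44, adjusted p = 7.43e-06 and 2.45, adjusted p = 1.38e-05).

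In PT Wfdc2 was at 11.79, 7.182, 7.61, 7.043 and 6.631 CPM in the controls, 67.92, 64.35 and 38.69 CPM in UIR and 87.13, 128.6 and 108.1 CPM in UUO. The fold change was larger than in LOH, DT, CD-P and CD-I, as tested further on (2.84, SE 0.19, adjusted p = 7.01e-10 and 3.70, SE 0.30, adjusted p = 3.15e-08, lost in UUO with a mitochondrial limit of 15% at 0.417), from a level that stayed at 0.0714 to 0.239 times that of the empty droplets. The empty droplets of a library hold RNA that leaked from cells, and their Wfdc2 level had a median of 100.6, 473.5 and 537.5 CPM in control, UIR and UUO. With 10% of each pool subtracted as free RNA both PT comparisons passed (8.77, adjusted p = 0.00406 and 11.22, adjusted p = 0.0039). All control PT pools, at 0.0440 to 0.0879 times the empty droplets, lay under the 10% removed. So did the unnumbered UIR library, UIR2 and the unnumbered UUO library. The subtraction thus left the controls near zero, with UIR1 alone above the limit in UIR and UUO1 and UUO2 in UUO. The fitted values are no measure of size. As the controls were bound to fall near zero, the 2 passes are no test of the rise either.

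Igfbp7 was high in frTECs, podocytes and stroma in all groups that had pools and changed in few classes. Its locus is on the minus strand of chromosome 5 (5:77349240-77408041). Control podocytes were at 6695 to 7582 CPM and control stroma at 5971 to 10040 CPM. Neither differed by the test after injury, with stroma at 6033 to 10480 CPM in UIR (log2 fold change 0.05, SE 0.23) and 7714 to 10620 CPM in UUO (0.17, SE 0.23), where 14.3% and 16.9% of all genes in stroma passed. Podocytes of UUO lay above all controls without passing (0.46, SE 0.17, adjusted p = 0.167), while those of UIR overlapped them (0.32, SE 0.17, adjusted p = 0.618). frTECs held 9216, 3809 and 5359 CPM in UIR and 12230, 5314 and 5457 CPM in UUO. Within that class the cluster led by Ubd and Havcr1 averaged 2986 CPM of Igfbp7 and the other cluster 8764 CPM. LOH was the tubular class in which Igfbp7 rose, from 389.1, 794.4, 613.6, 560.1 and 654.1 CPM to 2348, 2053 and 1925 CPM in UIR and 3275, 2186 and 2184 CPM in UUO. The groups did not overlap (1.59, SE 0.18, adjusted p = 1.71e-07 and 1.86, SE 0.19, adjusted p = 8.73e-09). In endothelium the controls spread from 75.98 to 734.8 CPM, UIR was at 635, 623.3 and 514.2 CPM and UUO at 1558, 1059 and 821.2 CPM. Only UUO lay above all controls (1.63, SE 0.40, adjusted p = 0.00885), a call lost with DESeq2. The other tubular classes did not pass, with PT at 594.3 to 911.9 CPM in the controls and 914.7 to 1115 CPM in UIR (0.55, SE 0.23, adjusted p = 0.155) which passed without the unnumbered UUO library (adjusted p = 0.0281). DT of UUO, at 2116, 1754 and 1800 CPM, lay above the controls at 1160 to 1357 CPM without passing (0.21, SE 0.13, adjusted p = 0.198). The UUO pools of the thin limb also lay above their controls without passing (0.305, SE 0.23, adjusted p = 0.5475).

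Cst3 was high in conventional dendritic cells and macrophages and moved in both directions. Its locus is on the minus strand of chromosome 2 (2:148871722-148875692). Dendritic cells held 14500 to 17210 CPM in UIR and 11680 to 13770 CPM in UUO, and the 26 control cells were too few for pools. In macrophages Cst3 was at 8800, 7327, 7069, 7519 and 8210 CPM in the controls, 5614, 4053 and 4606 CPM in UIR and 5607, 5014 and 4328 CPM in UUO. All injured libraries were below all controls (log2 fold change −0.70, SE 0.14, adjusted p = 0.00419 in UIR and −0.70, SE 0.14, adjusted p = 0.00226 in UUO), where 5.88% and 10.6% of all genes in macrophages passed. In endothelium the controls were at 2051, 1858, 1582, 1942 and 1800 CPM, UIR at 1374, 1054 and 1233 CPM and UUO at 1133, 846.6 and 876.1 CPM. Here too the groups did not overlap (−0.64, SE 0.13, adjusted p = 0.0132 and −1.04, SE 0.14, adjusted p = 2.79e-05), with 2.12% and 11.9% of all genes passing, though UIR did not pass without UIR1 or UIR2 (adjusted p = 0.101 and 0.066).

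In the collecting duct Cst3 was lower after UUO in the main comparison, but not under every alternative. CD-I went from 690 to 832.9 CPM in the controls to 592.3, 499.2 and 491.4 CPM in UUO (−0.84, SE 0.16, adjusted p = 5.2e-04), which did not pass when each cell was named on its own by markers (−0.15, adjusted p = 0.672), with UIR at 1067, 867.9 and 704.9 CPM (−0.01, SE 0.15). UUO was also below UIR in CD-I (−0.82, SE 0.17, adjusted p = 0.0245), which did not pass without the unnumbered UIR library, UIR1, UUO1 or UUO2 (adjusted p = 0.0895, 0.071, 0.127 and 0.155), nor with a mitochondrial limit of 15% (0.201), a doublet share of 15% (0.306) or the marker gate (0.0823). CD-P went from 874.8, 921.3, 875.7, 819.2 and 907 CPM to 767.2, 624.8 and 640.3 CPM in UUO (−0.44, SE 0.14, adjusted p = 0.0171), a call lost without UUO1 or UUO2 (adjusted p = 0.092 and 0.0618), with a mitochondrial limit of 50% (0.0803), a doublet share of 15% (0.122) and at least 50 cells per pool (0.196), and turned in direction when each cell was named on its own by markers (0.40). PT moved the other way, from 120.4, 108.2, 115.9, 121.2 and 138.6 CPM to 226.8, 286 and 191.1 CPM in UIR (0.98, SE 0.14, adjusted p = 4.75e-05) and 377.6, 267.5 and 187 CPM in UUO (0.83, SE 0.19, adjusted p = 0.0129). These PT levels were 0.358 to 1.392 times those of the empty droplets in the controls, 0.2825 to 0.612 times in UIR and 0.160 to 0.223 times in UUO. The empty droplets' Cst3 level had a median of 109.5, 634.8 and 1494 CPM in control, UIR and UUO. The UUO difference did not pass without UUO1 (0.59, adjusted p = 0.318), with a mitochondrial limit of 15% (0.66), a doublet share of 15% (0.0833) or the marker gate (0.181), and was −0.13 when 10% of each pool was subtracted as free RNA. Cst3 did not pass in LOH (346.4 to 397.7 CPM in the controls, 507.6 to 598.9 in UIR, 436.8 to 645.0 in UUO, which do not overlap the controls), DT (488.5 to 669.2 CPM over all libraries), the thin limb (398.5 to 526.1), podocytes (794.6 to 1422), stroma (1036 to 2937) or T/NK cells (148.0 to 419.2). Over all kept cells Cst3 rose from 441.6 to 646.1 CPM in the controls to 1947 to 2179 CPM in UIR (1.57, SE 0.11, adjusted p = 2.48e-07) and 2417 to 2988 CPM in UUO (1.83, SE 0.11, adjusted p = 2.31e-08), while dendritic cells held 47.0% of its UMIs in UIR and 43.5% in UUO.

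**Figure D3:**
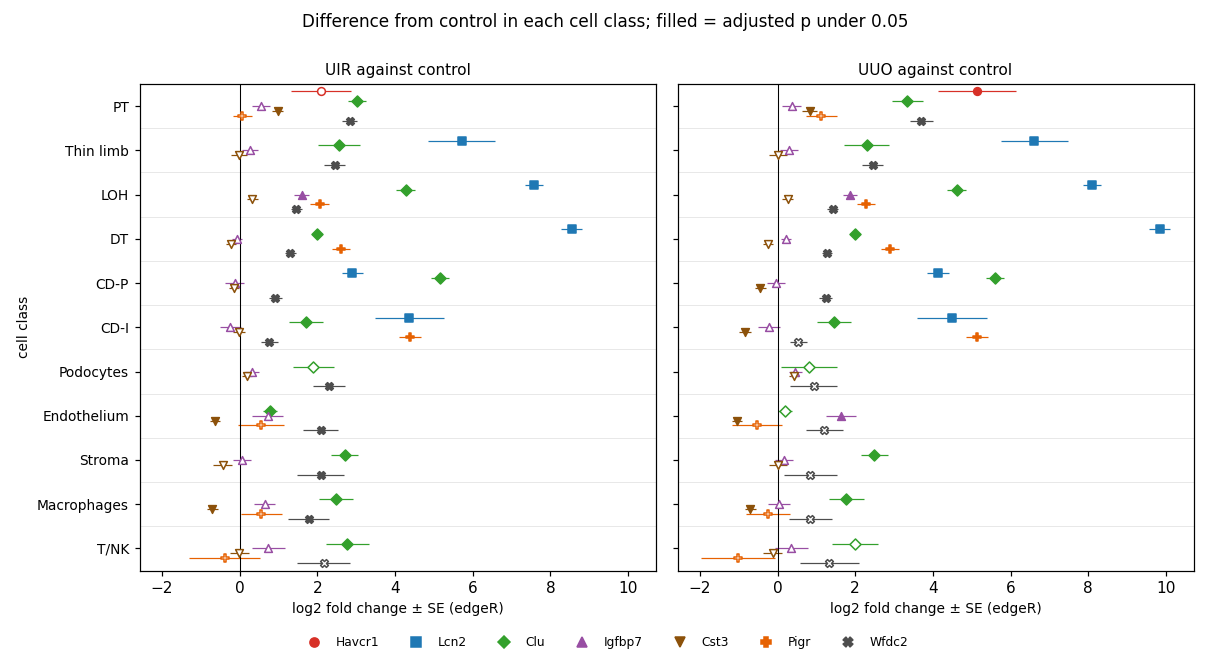
Points give the log2 fold change of each gene against control by class, with bars of 1 SE, for UIR and UUO, filled where the adjusted p passed 0.05 and open where it did not. Tests with 3 or fewer counts in either group are not drawn. Clu reaches its largest drawn value in CD-P and Pigr in CD-I, and Cst3 points lie on both sides of zero.

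Outside the nephron, Lcn2 was low in macrophages, stroma, endothelium and T/NK cells. In macrophages Lcn2 was at 0 in every control library, at 17.63, 16.06 and 13.97 CPM in UIR and at 19.45, 25.89 and 9.698 CPM in UUO. Against 3 counts over the controls, the level of the pooled UMIs was at least 6.43-fold higher in UIR and at least 7.65-fold higher in UUO (adjusted p = 0.0118 and 0.00416). The injured libraries were at 0.108 to 0.150 times the level in the empty droplets of the same library in UIR and 0.0323 to 0.066 times in UUO. The UIR call was lost with a mitochondrial limit of 15% (adjusted p = 0.0519) and with the marker gate (0.115). Stroma had no Lcn2 UMI in the controls either and held 5.936 to 18.67 CPM in UIR and 7.853 to 13.37 CPM in UUO (at least 3.18-fold and at least 3.14-fold for the pooled UMIs). Its adjusted p was 0.0382 in UIR and 0.0364 in UUO, was 0.251 and 0.198 with a mitochondrial limit of 15%, and rose above the threshold without any 1 of the controls or without the unnumbered UUO library (0.0539 to 0.0937). Both calls in stroma were also lost with a doublet share of 15%, and that of UIR with at least 1000 UMIs per cell. In endothelium 1 control UMI stood against 7.568 to 35.11 CPM in UIR and 9.662 to 13.13 CPM in UUO (adjusted p = 0.00196 and 0.00175). T/NK cells held 0 CPM in the controls and 10.17 to 17.14 CPM after injury, at least 2.15-fold and at least 2.29-fold higher for the pooled UMIs, without passing (adjusted p = 0.134 and 0.0665), though UUO passed without UIR2 (0.0446). In T/NK cells 0.477% of all genes passed in UIR and 1.93% in UUO, and in podocytes 1.17% and 3.31%.

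Clu was at 60.17 to 138.3 CPM in UIR macrophages against 5.691 to 27.44 CPM in the controls (2.49, adjusted p = 0.00105), at 0.0935 to 0.189 times the empty droplets, and it was at 102.5 to 136.8 CPM in UIR stroma against 0 to 35.58 CPM (2.71, adjusted p = 4.59e-05). With 10% of each pool subtracted as leaked RNA neither passed, and the UUO differences turned from 1.77 to −7.26 in macrophages and from 2.49 to −1.84 in stroma. Wfdc2 passed in UIR in podocytes, endothelium, stroma and macrophages (2.30, 2.09, 2.08 and 1.77, adjusted p = 0.00203, 0.0159, 0.0252 and 0.0472) and in none of them in UUO, though endothelium passed there without UUO2 (1.53, adjusted p = 0.0299). The macrophage call held in 10 of 22 alternatives and was lost without any 1 of 7 of the libraries (adjusted p = 0.0605 to 0.133) and with mitochondrial limits of 15% and 50%, at least 1000 UMIs per cell and a Leiden resolution of 2 (0.0553 to 0.164), the stroma call without N1, N2, AN1 or UIR1 (0.0732, 0.0759, 0.0642 and 0.105) and the endothelium call without AN1 or UIR1 (0.0544 and 0.0635). With 10% of each pool subtracted as free RNA the endothelium and macrophage calls were lost (0.63, adjusted p = 0.957 and 0.21, adjusted p = 0.972), and with a mitochondrial limit of 15% the stroma call (0.69, adjusted p = 0.666). In T/NK cells Clu passed in UIR (2.77, adjusted p = 0.0113), but not without N2, AN1 or AN2 (0.0608, 0.0581 and 0.0898) or with free RNA subtracted (0.955). It also did not pass with a doublet share of 15% or with the marker gate. In endothelium Clu was at 117.4 to 179.7 CPM in the controls, with a median of 1.53 times the level in the empty droplets, and at 286.6, 329 and 187.5 CPM in UIR (0.78, SE 0.17, adjusted p = 0.0191). That call was lost without AN1, the unnumbered UIR library or UIR1 (adjusted p = 0.071, 0.0508 and 0.17), with free RNA subtracted (0.66) and with a doublet share of 15%, and UUO did not pass (0.20, SE 0.18). The endothelium pools held Clu at 0.2097, 0.6089 and 0.2913 times the empty droplets of the same library in UIR and at 0.1555 to 0.1713 times in UUO.

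**Figure D4:**
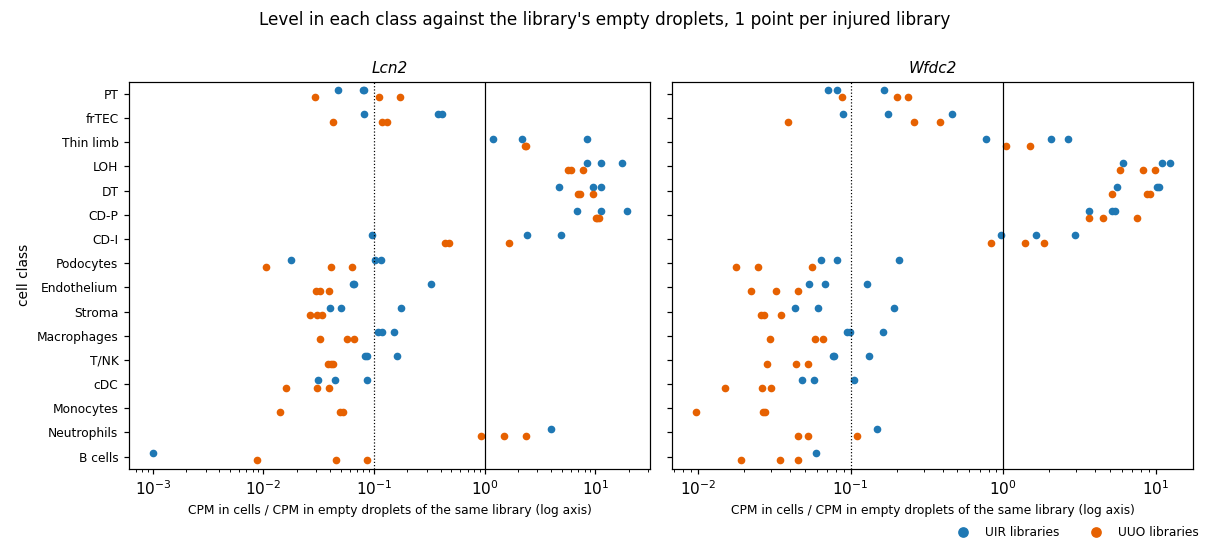
For Lcn2 and Wfdc2 each point is the CPM of a class divided by the CPM in the empty droplets of the same injured library, on a log axis with lines at 1 and 0.1, and a ratio of 0 is drawn at 0.001. LOH, DT and CD-P points of Lcn2 lie at 4.71 to 19.2, and macrophage points at 0.0323 to 0.150.

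The size of the response differed between PT and the other segments for 5 of the 7 genes. A fit with each segment's response taken minus that of PT in the same library gave 35 tests per injury, of which 8 lay above PT and 9 below in UIR and 5 above and 7 below in UUO. Over all genes 11.9% and 9.74% of such tests passed, and the median of all genes in these differences was 0.00335 to 0.0818 in UIR and 0.224 to 0.31 in UUO, so the UUO values are to be read against that shift. Pigr was above PT in 4 segments in UIR, from 1.98 in LOH to 9.13 in CD-P, and in 3 in UUO (CD-P 8.88, CD-I 4.27 and DT 1.99). The CD-P differences rest on 2 control UMIs and ran from 3.98 to 12.87 in UIR and from 4.03 to 12.44 in UUO over the alternatives. The thin limb passed as well in UIR, but with no Pigr UMI in its controls the size of that difference is not given. The UUO difference in DT was lost with a mitochondrial limit of 15% (0.41, adjusted p = 0.817) and with the marker gate (1.59, adjusted p = 0.0601), and the UIR difference in LOH with that limit (adjusted p = 0.0715). Clu was above PT in CD-P and LOH in UIR (2.31 and 1.45) and in CD-P in UUO (2.48), and Igfbp7 in LOH in both (1.10 and 1.597), the UUO value being lost with the marker gate (0.83, adjusted p = 0.088). The Clu difference in LOH did not pass without N2, AN2, the unnumbered UIR library, UIR2 or the unnumbered UUO library (adjusted p = 0.15, 0.059, 0.115, 0.125 and 0.0506), with a mitochondrial limit of 15% (0.348) or with free RNA subtracted (0.706), and those in CD-P did not with a mitochondrial limit of 50% (0.93 and 1.596), with the marker gate (0.96 and 1.33) or with free RNA subtracted (adjusted p = 0.433 and 0.277). Wfdc2 was below PT in 4 segments in both injuries (−1.33 to −1.99 in UIR and −2.15 to −2.98 in UUO). With free RNA subtracted the differences were −7.22 in CD-I in UIR and −9.85 in CD-I and −9.15 in CD-P in UUO. All control PT pools of Wfdc2 lay under the 10% removed, so these values are no measure of size. The Wfdc2 difference in DT was lost with a mitochondrial limit of 15% in both (adjusted p = 0.511 and 0.801) and in UUO also with 15% of barcodes removed as doublets (0.149) and with the marker gate (0.0849). In UUO that in LOH was lost with the limit of 15% (0.815) and with the doublet share of 15% (0.211), and that in CD-P with the latter (0.091). Cst3 was below PT in 5 segments in UIR (−0.63 to −1.17) and 3 in UUO (−0.96 to −1.53). With the marker gate the Cst3 differences in CD-I and DT were lost in both injuries, as was that in CD-P in UUO (adjusted p from 0.0582 to 0.939). Of the Cst3 differences those in LOH and the thin limb in UIR were lost without UIR1 (adjusted p = 0.146 and 0.0619) and that in DT in UUO without UUO1 (0.0609). Neither Havcr1 nor Lcn2 passed in any segment, the PT side of both resting on few UMIs, with standard errors up to 4.71 for Lcn2.

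Of 84 tests of UUO against UIR in 14 pools, 2 were higher and 1 lower, against 4.15% of tests over all genes. These were Lcn2 in DT and CD-P and Cst3 in CD-I, with the values given above. The count of 3 was 15 without the unnumbered UUO library, 8 without UIR2, 1 without the unnumbered UIR library or without UUO1, 13 with a replicate block and 23 with no filter on low counts. The share of all genes called was not counted under these alternatives, so the changed counts cannot be read as particular to the members. The 2 injuries share their controls, so their fold changes against control are not independent of each other.

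Other injury markers, a list of 30 genes chosen with earlier results of these data known, held more members that rose than fell in each tubular class. In LOH, where 32.7% and 37.6% of all genes passed, 14 of 21 tested rose and 2 fell in UIR and 15 rose and 2 fell in UUO, and the list's median log2 fold change was 1.97 and 2.47, beside 0.08 and 0.07 over all genes. In PT, with 8.68% and 3.86% of all genes called, 14 of 22 rose and 1 fell in UIR and 8 rose and 1 fell in UUO (list median 1.35 and 1.53, all genes −0.01 and −0.07). In DT 12 of 17 rose and 2 fell in UIR and 14 rose and 2 fell in UUO (all genes 32.0% and 42.9% called, list median 1.596 and 1.98, all genes 0.03 and 0.03). In CD-P 7 of 15 rose and 1 fell in UIR and 9 rose and 2 fell in UUO (all genes 15.7% and 31.7%, list median 0.42 and 0.67, all genes 0.01 and 0.02). In CD-I 9 of 15 rose and 2 fell in UIR and 10 rose and 3 fell in UUO (all genes 13.8% and 24.0%, list median 0.91 and 1.02, all genes 0.01 and 0.01). In the thin limb 7 of 15 rose and 2 fell in UIR and 7 rose and 3 fell in UUO (all genes 6.12% and 5.96%, list median 0.91 and 1.07, all genes 0.02 and 0.02). Among those that rose were Krt19, a keratin of simple epithelia (3.60 in PT, 3.62 in DT and 4.61 in CD-P in UIR), Sox9, a transcription factor of tubular repair (6.24 in PT and 5.93 in CD-P), and Spp1, encoding osteopontin (2.99 in CD-P). Egf, the epidermal growth factor of the distal nephron, fell in all 6 segments in UIR, with log2 fold changes of −5.89 in LOH, −4.48 in DT, −2.97 in CD-P, −2.65 in CD-I, −2.34 in the thin limb and −2.22 in PT. In UUO the change of Egf was −7.21 in LOH and −6.76 in DT. In stroma 2 of 17 rose in UIR and 4 rose and 2 fell in UUO, beside 14.3% and 16.9% of all genes called. In macrophages 5 of 17 rose and 1 fell in UIR and 5 rose and 2 fell in UUO, beside 5.88% and 10.6% of all genes. Spp1 was among those that rose in UIR in both (7.13 and 3.19).

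The genes whose levels followed each member most closely over the 68 tubular pools, among 9169 genes with a mean of at least 10 CPM, are given as a description. Havcr1 went with Cldn1, Fn1 and C3 (Pearson r of log2(CPM + 1) 0.836, 0.824 and 0.818), Lcn2 with Krt8, Oit1 and Krt19 (0.904, 0.894 and 0.882) and Clu with Rev3l and Tgfbr1 (0.854 and 0.849). Wfdc2 went with Vav3, Lgals3 and Rab27b (0.938, 0.906 and 0.902), Cst3 with Scd2, Sh3bgrl3 and Ggh (0.933, 0.894 and 0.892), Igfbp7 with Lmna, Hmgn1 and Col4a1 (0.820, 0.814 and 0.809) and Pigr with Ly6a, Mmp15 and Itga6 (0.735, 0.734 and 0.731). Among the members themselves Clu and Wfdc2 (0.763), Clu and Lcn2 (0.744) and Cst3 and Wfdc2 (0.719) were closest, and Havcr1 was closest to Igfbp7 (0.575). The pools share libraries and depth, so these values describe the order of the classes as much as the injury.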

How the data were processed

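Single cells of dissociated mouse kidney were captured with the 10x 3' version 3 chemistry, and the authors deposited raw UMI counts per gene and barcode for each of the 11 libraries, empty droplets included, aligned to mm10 per the labels (Cell Ranger 3.1.0 in the submitters' processing notes). The methods name a decontamination and a doublet step, which the deposited counts were taken not to include.

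Cells were called from the counts by a UMI limit (the top 3000 barcodes' 99th percentile, divided by 10) and by a Monte Carlo test against the profile of barcodes ranked 45000 to 90000, with at least 500 UMIs, 10000 simulations and a false discovery rate of 0.01. Excluded were cells with over 30% of UMIs from mitochondrial or 5% from hemoglobin genes, cells with fewer than 200 genes, and the 7.5% of barcodes with the highest simulated-doublet score. Cells were clustered on 2000 variable genes and 40 components (30 at the second level) with 20 neighbours and a Leiden resolution of 1, leaving out the 7 genes and the marker lists. A cluster took a class name from marker genes when its mean z score was at least 1.0 and led the next class by 0.25, with at least 3 markers at 20 CPM. This naming rule and the joining of distal and connecting tubule were set after the marker levels of the clusters were seen, and names rebuilt here can differ from those of the study.

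Counts were summed per class and library (at least 20 cells) and tested with edgeR 4.0.16 (filterByExpr, TMM, quasi-likelihood) in R 4.3.3, all 3 groups in one model. The differences from PT were fitted with library, class and class-by-injury terms. The p-values were adjusted over all genes of a class at 0.05. Confidence intervals of 95% and the floor of 3 counts cover counting error only. Python 3.11.15, scikit-learn 1.9.0, leidenalg 0.10.2 and, as an alternative, DESeq2 1.42.0 were used. On simulated counts with known changes for UIR against control, 78.2% of 2-fold and 97.8% of 4-fold changes were recovered in PT (11325 genes), 69.9% and 94.8% in LOH (11434 genes) and 26.0% and 80.2% in stroma (10565 genes).

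The 7 genes, the list of 30 injury markers and the motifs were chosen with earlier results of these data known. By rule, the text covers the 7 genes in classes with pools in at least 2 libraries of each group, up to 3 of the 30 per class and direction, and the 3 genes nearest to each member in pattern, of which 1 is not reported here. Alternatives changed the test, the filter, the mitochondrial, UMI, doublet and pool limits, the class names, the free RNA, the replicate block and each library in turn.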

Additional observations from a re-analysis of the deposited data

Results flagged for a closer look

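In 6 of 55 control groups 1 library stood far from the other controls, where chance alone would mark about 1 group in 20. These were N2 for Havcr1 in PT (4.005 CPM, the others at 0.112 to 0.428), N1 for Lcn2 in DT (6.847 CPM, the others at 1.001 to 1.658), AN1 for Clu in CD-I (1169 CPM, the others at 187.4 to 393.2), N2 for Clu in podocytes (161.9 CPM, the others at 4.054 to 10.69), N2 for Cst3 in T/NK cells (419.2 CPM, the others at 148.0 to 180.7) and Ctrl for Wfdc2 in PT (11.79 CPM, the others at 6.631 to 7.61). Without N2, Clu in podocytes passed in both injuries (log2 fold change 3.56, adjusted p = 5.43e-08 in UIR and 2.48, adjusted p = 6e-04 in UUO), where with all libraries it did not (1.89, adjusted p = 0.0975 and 0.82, adjusted p = 0.663). That library was marked as high in the same data, so its removal is no independent test. Injured podocytes held Clu at 0.0907 to 0.168 times the empty droplets of the same library in UIR and 0.0329 to 0.0577 times in UUO.

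In 29 tests the response of a segment differed from that of PT by the test of the difference. For Pigr the difference in UIR was 4.363 in CD-I, 9.128 in CD-P, 2.538 in DT, 1.977 in LOH and, as a fitted value over control pools with no Pigr UMI that is no measure of size, 9.872 in the thin limb, and in UUO 4.266 in CD-I, 8.879 in CD-P and 1.992 in DT. For Clu it was 2.315 in CD-P and 1.452 in LOH in UIR and 2.484 in CD-P in UUO, and for Igfbp7 in LOH 1.104 in UIR and 1.597 in UUO. For Cst3 it was −0.9581 in CD-I, −1.109 in CD-P, −1.169 in DT, −0.6296 in LOH and −0.9684 in the thin limb in UIR, and −1.534 in CD-I, −1.193 in CD-P and −0.9621 in DT in UUO. For Wfdc2 it was −1.994 in CD-I, −1.876 in CD-P, −1.462 in DT and −1.332 in LOH in UIR, and −2.983, −2.349, −2.269 and −2.151 in UUO.

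Cells that took no class name were used in no class comparison, and several members stood higher there than in any control library. The median over injured libraries was 9.921 CPM for Havcr1 in UIR, 101.3 and 260.0 CPM for Lcn2 in UIR and UUO, 401.1 and 1432 CPM for Clu, 2557 and 3268 CPM for Igfbp7, 3344 and 3928 CPM for Cst3 and 24.02 CPM for Pigr in UIR. The highest control library was at 2.803, 0, 216.9, 672.8, 801.2 and 19.76 CPM for these genes.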

How the results depend on the processing

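Of the 44 calls in UIR, 41 in UUO, 3 in UUO against UIR and 29 differences from PT, 29, 26 and 1 of the calls and 9 of 17 (UIR) and 3 of 12 (UUO) of the differences held in every alternative that tested them. Alternatives in which a gene had no test were not counted. Lcn2 in PT in UIR was tested in 21 alternatives, for example, and Clu there in 22. The calls counted as held include Wfdc2 in PT in UIR, where the subtraction of free RNA left the controls near zero. A mitochondrial limit of 15% gave 24 calls in UUO over 46 tests, where the main count is over 72, and 7 differences from PT over 28 tests. Naming each cell on its own by markers gave 18 differences from PT over 48 tests. For UUO against UIR the count was 23 with no filter on low counts, 1 with the limit of 15%, 6 with a limit of 50%, 5 with 15% of barcodes removed as doublets and 5 with 10% of each pool subtracted as free RNA. Leaving out 1 library gave 36 to 46 calls in UIR, 35 to 44 in UUO, 1 to 15 in UUO against UIR (15 without the unnumbered UUO library, 8 without UIR2, 1 without the unnumbered UIR library or without UUO1) and 26 to 31 differences from PT. The differences from PT could not be run with at least 50 cells per pool. The share of all genes called was counted in the main setting only, so these counts cannot be read as particular to the members. Some values turned in direction. Under the marker gate these were Cst3 in CD-I and DT in UIR (0.62 and 0.91) and in CD-P in UUO (0.40), and under the limit of 50% Wfdc2 in CD-P in UUO (−0.24). Under the limit of 15% they were Cst3 and Igfbp7 in DT in UIR (0.53 and 0.55), Cst3 in DT in UUO (0.59) and the DT differences from PT in UUO of Cst3, Igfbp7 and Wfdc2 (0.32, 1.64 and 0.61). With free RNA subtracted they were, in UUO, Clu in endothelium, macrophages and stroma (−1.04, −7.26 and −1.84), Igfbp7 in macrophages (−8.58) and Cst3 in PT (−0.13). For Clu in UUO macrophages all pools lay under the 10% removed, so that sign follows from the subtraction. The cause of the other turns was not tested.

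With the number in the library name as a replicate block 46 calls were made in UIR, 46 in UUO and 13 in UUO against UIR, with no share over all genes counted beside them. Library deviations correlated at 0.273 for UIR1 and UUO1, at −0.00925 for UIR2 and UUO2 and at −0.0885 to 0.0815 for the other pairs of the same number. The numbers were not taken to pair the libraries. Ctrl and the unnumbered UIR and UUO libraries, which formed a block of their own in that fit, were not compared in this way. Whether libraries of the same number share a run was not tested.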
